A study of Macrobrachium nipponense with 6 samples.

Results

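The miRNAs of animal Hox clusters were followed in the oriental river prawn, Macrobrachium nipponense, through 39 array probes named for miR-10 (10 probes), miR-993 (18), miR-iab-4 (4) and miR-iab-8 (7). The probes were taken by name from the 2546 miRNA probes of the array, a rule that used no measured value. Earlier results of these data were known when the names were chosen. Prawns were held for 24 h in hypoxic water at 2.0 ± 0.1 mg O2 per L or in normoxic water at 6.5 ± 0.2 mg O2 per L, and 3 samples from each oxygen level were hybridised, 1 array a sample. The labels give each sample the tissues gill, hepatopancreas, muscle and hemocytes together, and name no strain, age or other agent. Whether a group's samples stem from different animals is not labelled. The p-values therefore reflect only how far these samples differ among themselves, which may be technical. In such combined tissue, fewer cells of a type and less RNA per cell cannot be told apart.

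Hox genes give the segments of an animal body their identity, and several miRNA genes lie among them. In Drosophila melanogaster the gene of miR-10 lies in the Antennapedia complex, and its hairpin gives mature miRNAs from both arms, called 5p and 3p. The related miR-993 of arthropods resembles miR-10 in sequence, while miR-iab-4 and miR-iab-8 come from opposite strands of a locus in the fly bithorax complex and repress Hox genes such as Ultrabithorax. A mature miRNA binds its target RNAs mainly through its seed, bases 2 to 8 from the 5′ end. Where these genes lie in prawns was not analysed here. Probes keep their names on the array, whose prefix is the species of the original sequence (dme for Drosophila melanogaster, tur for the spider mite Tetranychus urticae, bmo for the silkworm Bombyx mori).

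The 9 miR-10 probes that could be measured fall into 6 for the 5p arm and 3 for the 3p arm. Their target sequences on the array are shown because the comparison rests on them and because they differ mostly at their ends, and all come from the array's own target column. Each is written 5′ to 3′ with the seed in capitals.
tur-miR-10-5p: cACCCUGUagauccgaauuugu
der-miR-10_L+1: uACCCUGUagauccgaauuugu
aga-miR-10_L+1_1ss2AC: cCCCCUGUagauccgaauuugu
dme-miR-10-5p: aCCCUGUAgauccgaauuuguu
dan-miR-10: aCCCUGUAgauccgaauuugu
aae-miR-10_L+5R-1: gAUCUACCcuguagauccgaauuugu
bmo-miR-10-3p_L-1: aAAUUCGGuucuagagagguuu
tur-miR-10-3p: gAAUUCGGcucuagagagguuug
dme-miR-10-3p: cAAAUUCGguucuagagagguuu

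All 6 of these 5p targets hold a common run of 20 bases, and no other probe on the array holds it. They start at different points or with a different base, so that they carry 4 different seeds around the same run. The targets of tur-miR-10-5p and der-miR-10_L+1 share the seed ACCCUGU and are 1 edit apart. Those of dme-miR-10-5p and dan-miR-10 share the seed CCCUGUA and are also 1 edit apart, a single base at the 3′ end. Of the 3p targets, those of bmo-miR-10-3p_L-1 and dme-miR-10-3p are 1 edit apart at the 5′ end, and that of tur-miR-10-3p is 4 edits from dme-miR-10-3p.

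A second set compares probes that share a seed but differ elsewhere in the target. Whether the seed bears on detection was not tested. On the array, 13 probes have the seed ACCCUGU, and 11 of them are named for miR-10 or miR-993. Only tur-miR-10-5p and der-miR-10_L+1 among the 11 were measured on all arrays. The other 9, of which 8 are miR-993 probes, share 8 to 15 bases in a row with der-miR-10_L+1 and lie 5 to 8 edits from it. The first 3 below begin with the same 15 bases as der-miR-10_L+1 and differ from it after them, and the last shares 8.
mse-miR-10b: uACCCUGUagauccgcgccgugaa
mse-miR-993: uACCCUGUagauccgggcuuuug
bmo-miR-993b-5p: uACCCUGUagauccgggcuuucg
tur-miR-993b-5p: uACCCUGUgaacccgggcuuuug

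The third set shows that probes for miR-iab-4 and miR-iab-8 target complementary RNAs. Capitals here mark the run of bases that pairs with the partner. The dme-miR-iab-8-5p target is complementary over 23 bases to that of dme-miR-iab-4-3p. The dme-miR-iab-8-3p target is complementary over 19 bases to that of dme-miR-iab-4-5p.
dme-miR-iab-8-5p: UUACGUAUACUGAAGGUAUACCG
dme-miR-iab-4-3p: CGGUAUACCUUCAGUAUACGUAAc
dme-miR-iab-8-3p: GGAUACAUUCAGUAUACGUuua
dme-miR-iab-4-5p: ACGUAUACUGAAUGUAUCCuga

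The arrays differed in ways that touch these probes. A probe counted as detected on an array when its signal above background passed 3 standard deviations of the empty spots, a limit of 27.8 to 77.0 intensity units on the hypoxia arrays and 35.6 to 94.5 on the normoxia arrays. Hypoxia 1, 2 and 3 had 443, 908 and 420 of the 2546 probes detected, and normoxia 1, 2 and 3 had 545, 1001 and 342. Hypoxia 3 stood apart from its group, with a mean correlation of 0.754 to the other hypoxia arrays across the 339 tested probes, which are not independent replicates. The other arrays had 0.813 to 0.867 within their groups. Results are therefore also given without hypoxia 3. Of the muscle markers miR-1 and miR-133, 5 of 15 probes were tested, with summed normalized intensities of 17684 to 31154 on the hypoxia arrays and 9029 to 28650 on the normoxia arrays. Of 86 probes for the nervous system markers miR-124, miR-9, miR-7 and miR-263, 34 were tested. All were for miR-9, miR-263 or miR-7, and none was for miR-124. Their sums were 41777 to 53067 in hypoxia and 39646 to 43021 in normoxia, and their part in the results was not tested. No probe on the array matched the vertebrate blood and liver markers listed as a negative check.

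The first question was which Hox cluster miRNAs the prawn tissues held at a measurable level. Probes for miR-10 were measured on every array, and no probe for miR-993, miR-iab-4 or miR-iab-8 was. Of the 10 miR-10 probes, 9 were detected on all 6 arrays, and the exception was mse-miR-10b, detected on none. Of the 29 probes for the other miRNAs, 0 were detected on all 3 arrays of either group and 13 on no array. Over the whole array, 1007 of the 2546 probes, or 39.6%, were detected on no array, so this was common among all kinds of probe. Of all probes, 12.4% were detected on all 3 hypoxia arrays and 12.4% on all 3 normoxia arrays.

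The signal of tur-miR-10-5p above background was 1574, 758 and 2193 intensity units on hypoxia 1 to 3, and 866, 1522 and 1357 on normoxia 1 to 3. For the 3p arm, tur-miR-10-3p gave 961, 525 and 417 in hypoxia and 575, 1028 and 727 in normoxia. These are signals before scaling between arrays, and both probes were above the limit everywhere. Over the 9 probes the mean signal of the 6 arrays ranged from 416 to 1378. The probe mse-miR-10b, named after a miR-10 copy of the hawk moth Manduca sexta, read -0.68, 14.4 and -1.87 in hypoxia and 16.3, 33.4 and -7.00 in normoxia. It is given as a contrast chosen after its values were seen, since its target opens with the same 15 bases as that of der-miR-10_L+1.

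Among the 18 miR-993 probes, 9 were detected on no array. The 5p probe with the highest mean signal, tur-miR-993b-5p, read 120.5, 7.01 and 2.72 in hypoxia and 70.7, 112 and 5.77 in normoxia, and passed the limit on hypoxia 1 and on normoxia 1 and 2. For the 3p arm, cqu-miR-993-3p read 13.6, 29.6 and 2.93 in hypoxia and 9.89, 203 and 3.81 in normoxia, and passed on hypoxia 2 and normoxia 2. For both probes the groups overlapped and each held an array with a reading under 6 units. Over the 30 untested probes the mean signal of the 6 arrays ranged from 7.28 to 53.1 units, and no probe passed the limit on more than 3 arrays.

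Of the 4 miR-iab-4 probes 1 and of the 7 miR-iab-8 probes 3 were detected on no array, and the others on 1 to 3. The miR-iab-4 probe isc-miR-iab-4, with the 5p sequence of the tick Ixodes scapularis, read 5.63, 30.0 and 30.1 in hypoxia and 149.6, 99 and -0.515 in normoxia, and was detected on 3 arrays. The other miR-iab-4 arm, dme-miR-iab-4-3p, read 2.13, 25.3 and 11.9 in hypoxia and 17.5, 89.6 and 0.92 in normoxia. Each group thus included an array with almost no signal for either arm.

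From the opposite strand, tca-miR-iab-8-3p read 13.8, 29.4 and 3.89 in hypoxia and 16.9, 157 and -0.34 in normoxia. Its partner arm, tca-miR-iab-8-5p, read 10.7, 21.0 and 4.40 in hypoxia and 92.9, 42.9 and 4.66 in normoxia. Its highest reading was on normoxia 1, and it passed the limit there only.

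Detections of these probes on single arrays ran beside those of the array as a whole. Of the 30 probes outside the test, 3.33%, 23.3% and 6.67% were above the limit on hypoxia 1, 2 and 3, against 4.78%, 25.9% and 4.69% of the other untested probes. On normoxia 1, 2 and 3 the shares were 16.7%, 40% and 0%, against 9.51%, 29.9% and 0.965%. Hypoxia 2 and normoxia 2, the arrays with the most detected probes of all kinds, also held the most of these. A signal below the limit gives only an upper bound, and only for the target sequence of that probe. Low levels of these targets were not detectable here. The targets are named for other species and were not compared with prawn sequences. The prawn's own miR-993, miR-iab-4 and miR-iab-8 are therefore not shown to be absent or low.

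No Hox cluster probe was detected at 1 oxygen level only, taken as all 3 arrays of a group and none of the other: 0 in hypoxia and 0 in normoxia. Of all 2546 probes 0 (0.00%) were found so in hypoxia and 1 (0.0393%) in normoxia, so a count of 0 among 39 does not set these probes apart. With 3 arrays against 3, no exact test could go below a two-sided p of 0.1. The nearest was tur-miR-993a-3p, named after its values were seen, which read 4.73, 17.8 and 0.785 in hypoxia and 68.0, 125 and 10.5 in normoxia. It was detected on 0 of 3 hypoxia arrays and on 2 of 3 normoxia arrays. Its groups overlap in these signals before scaling, but not after it. The quantile-normalized levels of tur-miR-993a-3p were 6.45, 6.44 and 6.30 (log2) in hypoxia and 7.20, 7.02 and 6.93 in normoxia. In the authors' deposited table its values were 9.94, 0.03 and 0 in hypoxia and 58.7, 33.1 and 24.2 in normoxia. With no filter on dim probes its change was -0.65 ± 0.12 (SE, limma, unadjusted p = 0.0014, adjusted p = 0.768 over all 2546 probes), lower on 3 of 3 hypoxia arrays, and it did not pass. The limit itself mattered: with the spread of empty spots taken from their median absolute deviation, 13 of the 39 probes were detected on all hypoxia arrays and 9 on all normoxia arrays, and 2 were then found in hypoxia only, bmo-miR-993a-3p_1ss12CT and dps-miR-iab-8-5p. Over the whole array that limit gave 14 probes in hypoxia only and 0 in normoxia only. It was 37.5 intensity units on normoxia 2 and 14.1 to 16.2 on the other arrays. The signals of dps-miR-iab-8-5p were 14.1, 19.5 and 18.5 in hypoxia and 5.23, 22.5 and -1.08 in normoxia. Those of bmo-miR-993a-3p_1ss12CT were 15.3, 29.2 and 36.7 in hypoxia and 8.77, 35.3 and 0.81 in normoxia. For both probes the groups thus overlapped in these signals before scaling, and normoxia 2 missed only its higher limit. The quantile-normalized levels of bmo-miR-993a-3p_1ss12CT did not overlap. They were 6.71, 6.66 and 6.83 (log2) in hypoxia and 6.41, 6.39 and 6.53 in normoxia. With no filter its change was 0.29 ± 0.11 (SE, limma, unadjusted p = 0.0354, adjusted p = 0.898), opposite to that of tur-miR-993a-3p.

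The second question was whether miR-10 changed after 24 h of low oxygen. No miR-10 probe changed past the test, in either arm: 0 of 9 passed an adjusted p of 0.05 (limma, Benjamini-Hochberg over the 339 tested probes, adjusted p = 0.949 to 1.00), and 0 of 9 had an unadjusted p under 0.05. Over all tested probes 0.00% passed the adjusted and 4.42% the unadjusted threshold. The groups overlapped for all 9, while 3.83% of the tested probes had every hypoxia array above every normoxia array and 6.19% had every hypoxia array below. Hypoxia means were higher for 5 of the 9 and lower for 4, beside 41.9% higher among all tested probes. The median change was 0.0027 (log2, hypoxia minus normoxia), within a range of -0.36 to 0.36, and it lay below 0 with 75th percentile scaling (-0.048), no scaling (-0.10) or array weights (-0.021). The median over all tested probes was -0.094, and it ranged from -0.10 to -0.014 under the other scalings. With no filter on dim probes, 2 of all 39 members, both for miR-993, had an unadjusted p under 0.05, beside 2.91% of the array. They went in opposite directions, with changes of -0.65 for tur-miR-993a-3p and 0.29 for bmo-miR-993a-3p_1ss12CT.

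Levels below are normalized log2 intensities, with hypoxia 1 to 3 before normoxia 1 to 3. Of the 5p probes, tur-miR-10-5p read 10.10, 10.22 and 11.29 in hypoxia and 10.43, 10.18 and 10.72 in normoxia, a change of 0.095 ± 0.39 (SE, 95% interval -0.85 to 1.04, n = 3 each). Its highest reading was hypoxia 3, while hypoxia 1 and 2 lay within or below the normoxia values. The probe der-miR-10_L+1, with the same seed, read 9.77, 10.06 and 10.70 in hypoxia and 10.17, 9.87 and 10.18 in normoxia, a change of 0.10 ± 0.31 (-0.66 to 0.87). Here too hypoxia 3 was the highest array, and hypoxia 1 the lowest.

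The probe dme-miR-10-5p read 9.76, 10.08 and 10.17 in hypoxia and 10.29, 9.86 and 10.10 in normoxia, a change of -0.083 ± 0.25 (-0.69 to 0.52). Its 1-base-shorter counterpart dan-miR-10 read 9.74, 9.83 and 8.19 in hypoxia and 9.52, 9.38 and 9.94 in normoxia, a change of -0.36 ± 0.50 (-1.57 to 0.85). Hypoxia 3 was thus the lowest array for dan-miR-10, although it was not low for dme-miR-10-5p.

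Of the remaining 5p probes, aae-miR-10_L+5R-1 read 9.81, 9.92 and 10.18 in hypoxia and 10.01, 9.88 and 10.32 in normoxia, a change of -0.099 ± 0.24 (-0.70 to 0.50). The readings of aga-miR-10_L+1_1ss2AC were 8.92, 8.97 and 9.30 in hypoxia and 9.22, 8.52 and 9.19 in normoxia, a change of 0.091 ± 0.29 (-0.62 to 0.80). Both had hypoxia values inside or close to the normoxia range.

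The 3p arm, which in flies is a mature miRNA with targets of its own, gave a like result. The probe tur-miR-10-3p read 9.25, 9.74 and 9.72 in hypoxia and 9.83, 9.55 and 9.71 in normoxia, a change of -0.13 ± 0.25 (-0.73 to 0.48). For dme-miR-10-3p the readings were 9.19, 9.72 and 9.99 in hypoxia and 9.71, 9.52 and 9.66 in normoxia, a change of 0.0027 ± 0.28 (-0.69 to 0.69), whose sign turned under other scalings. Hypoxia 1 was the lowest array of each. The probe bmo-miR-10-3p_L-1 read 9.24, 9.94 and 10.94 in hypoxia and 9.77, 9.59 and 9.69 in normoxia, a change of 0.36 ± 0.45 (-0.74 to 1.46), and its normoxia arrays were close together. The SD of that probe was 0.85 over the hypoxia arrays and 0.089 over the normoxia arrays.

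The intervals set what these arrays can say. The narrowest, of aae-miR-10_L+5R-1, reached from -0.70 to 0.50, so a change of 1 log2 unit either way lay outside it. Those of dan-miR-10, bmo-miR-10-3p_L-1 and tur-miR-10-5p reached -1.57, 1.46 and 1.04 and would hold such a change. A missing call therefore does not show an equal level for these probes.

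Without hypoxia 3, 1 of the 9 changes lay above 0, that of dan-miR-10 at 0.17, beside 34.8% of all tested probes, and the other 8 lay below. The median was then -0.17 for the miR-10 probes and -0.18 for all tested probes, and 0 of 9 passed at either threshold (limma, adjusted p = 0.565 to 0.968). In that fit 18.6% of the tested probes had an unadjusted p under 0.05 and 0.295% passed the adjusted threshold. The change of tur-miR-10-5p was -0.28 ± 0.22 (SE, 95% interval -0.87 to 0.31) and that of bmo-miR-10-3p_L-1 -0.089 ± 0.26 (-0.78 to 0.60). Direction in 6 of the 9 probes thus turned with that array.

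How closely the probes for a single miRNA followed each other depended on the array. Each probe was set against its own normoxia mean, so that brightness did not enter. On normoxia 1 to 3 and hypoxia 1 and 2 the 6 probes of the 5p arm lay within 0.26 to 0.47 (log2) of each other, and on hypoxia 3 they spread over 2.27. Leaving out dan-miR-10, that range on hypoxia 3 was 0.76, still above the 0.22 to 0.30 of the other 5 arrays. The 3 probes of the 3p arm spread over 1.23 on hypoxia 3, 0.22 on hypoxia 2, 0.0079 on hypoxia 1 and 0.023 to 0.055 on the normoxia arrays. Over all tested probes the standard deviation of such deviations was 0.92, 0.80 and 0.98 on hypoxia 1 to 3 and 0.52 to 0.65 in normoxia. The normoxia deviations are smaller in part by construction, since they are taken from the mean of the same arrays.

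Some probes whose targets are 1 edit apart came apart on hypoxia 3. The level of dan-miR-10 minus that of dme-miR-10-5p was -0.013, -0.24 and -1.99 (log2) on hypoxia 1 to 3, and -0.77, -0.47 and -0.17 on normoxia 1 to 3. The level of bmo-miR-10-3p_L-1 minus that of dme-miR-10-3p was 0.058, 0.22 and 0.95 on hypoxia 1 to 3, and 0.054, 0.073 and 0.029 on normoxia 1 to 3. The level of dan-miR-10 minus that of der-miR-10_L+1, also 1 edit away, was -2.52 on hypoxia 3 and -0.65 to -0.023 on the other 5 arrays. In contrast, tur-miR-10-5p minus der-miR-10_L+1 was 0.58 on hypoxia 3 and 0.16 to 0.54 on the others. The level of tur-miR-10-5p minus that of aga-miR-10_L+1_1ss2AC was 1.99 on hypoxia 3 and 1.18 to 1.66 on the others. Between arrays this shows unequal change of near-identical probes, not which of them kept its level. Among the array's calibration spots, the mean signal of the 3M kind was 10.8%, 7.14% and 1.22% of that of the 3P kind on hypoxia 1 to 3, and 2.58%, 3.73% and 1.87% on normoxia 1 to 3. Hypoxia 3 had the lowest of these shares, hypoxia 1 the highest, and their part in the spread was not tested. No file explains these kinds.

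By arm, the median deviation of the 5p probes was -0.28, -0.0097 and 0.22 on hypoxia 1 to 3 and 0.041, -0.23 and 0.23 on normoxia 1 to 3. For the 3p probes it was -0.45, 0.092 and 0.36 in hypoxia and 0.083, -0.12 and 0.014 in normoxia. In both arms hypoxia 1 had the lowest median and hypoxia 3 the highest or nearly so, and no change between oxygen levels passed for either arm. The median change was 0.0039 over the 6 probes of the 5p arm and 0.0027 over the 3 of the 3p arm.

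Among the tested probes of other miRNAs, the patterns most like that of tur-miR-10-5p over the 6 arrays were those of nvi-miR-263b (Pearson's r = 0.970), bmo-miR-263a-5p (0.966), aae-miR-7_R+1 (0.946), tca-miR-92a-3p (0.941) and api-miR-87a (0.908). All were highest on hypoxia 3 and lowest on hypoxia 1 or normoxia 2. Without hypoxia 3 the values of r were 0.919, 0.943, 0.833, 0.898 and 0.807 in the same order. Within the family, der-miR-10_L+1 followed tur-miR-10-5p at 0.958 and dan-miR-10 at -0.755, or 0.830 and 0.439 without hypoxia 3. These are descriptions over 6 arrays that all probes share, with no test.

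A relative of miR-10 by sequence is miR-100, a miRNA encoded beside let-7 in flies. Of 17 such probes 13 were tested, 0 of 13 passed, 7 lay above 0 and 6 below, and the median change was 0.18 with a range of -0.50 to 1.58 (limma, adjusted p = 0.870 to 0.997). The upper end, of cqu-miR-100-5p_L+3, went with a single low array, at 9.26 on normoxia 1 beside 13.74 and 13.74 on normoxia 2 and 3. The change of dpu-miR-100, 1.37, likewise went with 9.62 on normoxia 1 beside 13.65 and 13.52. The probe api-miR-100 had a change of 0.20 ± 0.42 (SE, 95% interval -0.83 to 1.22). Its readings were 13.69, 13.68 and 14.91 in hypoxia and 14.30, 13.71 and 13.68 in normoxia, so hypoxia 3 was its highest array. The miR-100 probes were split on this. That array was also the highest for aga-miR-100_L+2R-1, at 14.43 against 13.71 to 13.86 on the others. The same held for cqu-miR-100-5p_L+3, dpu-miR-100 and dpu-miR-100_R-2. Hypoxia 3 was the lowest array for dme-miR-100-5p, at 11.52 against 12.43 to 13.44 on the others. It was also the lowest for ame-miR-100_L+4, at 12.06 against 13.32 to 13.74. The same held for aae-miR-100_L+2, api-miR-100_L+3_1ss4GA, dpe-miR-100 and dan-miR-100_R-1_1ss3CG. No probe on the array was named for miR-99, miR-196 or miR-615, relatives and Hox cluster miRNAs of vertebrates.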

How the data were processed

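Cy3-labelled total RNA was read on LC Sciences arrays, 1 array a sample and 1 colour, per the labels. The scanner tables that the authors deposited give a median intensity per spot, linear and without background subtraction, per the file headers and the values of empty spots. The authors' deposited value table holds intensity values already subtracted and scaled, by a method not given in the sources used here, and served as an alternative.

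Of 3968 spots an array, 2546 carried miRNA probes and 1130 were empty. Background was the median of the 20 nearest empty spots, corrected with normexp (limma 3.58.1, R 4.3.3, offset 50, which shrinks changes of dim probes). Intensities were quantile normalized over miRNA probes and taken as log2. Only probes detected throughout a group were tested (339, 13.3%), with lmFit and eBayes, hypoxia minus normoxia, and Benjamini-Hochberg adjustment at 0.05. Groups came from sample titles. The procedure was run on simulated arrays whose probes varied equally on every array, unlike these. That run therefore does not bear on the missing calls here. An arm missing from a name was read from the closest target of that stem.

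Named probes were all tested members, the probe with the highest mean signal of each stem and arm without one, the 5 other probes most correlated with tur-miR-10-5p, at most 1 per stem and arm, and the brightest tested miR-100 probe. Further probes, among them the other miR-100 probes, mse-miR-10b and tur-miR-993a-3p, were named after their values were seen. Members and lists were chosen with earlier results of these data known. Alternatives changed the background, scaling, filter, detection limit or array weights, used the authors' values or a replicate block, or left out an array. The number of arrays limits the precision.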

Additional observations from a re-analysis of the deposited data

Results flagged for a closer look

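Calibration spots outside the miRNA comparison gave more 3M signal, relative to 3P, on hypoxia 1 (10.8%) and hypoxia 2 (7.14%) than on any normoxia array, where 3.73% was reached at most. On hypoxia 3 the share was 1.22%. No test of a difference between oxygen levels was run on these spots.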

How the results depend on the processing

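No miR-10 probe passed under any of the 15 alternatives (limma, smallest adjusted p = 0.565, without hypoxia 3). The median change of the 9 probes ranged from -0.17 to 0.16 with single arrays left out. Over all tested probes, 0 to 1 passed with single arrays left out (1 without hypoxia 3) and 0 under the other alternatives. At an unadjusted p under 0.05 there were 15, against 5 with 75th percentile or no scaling, 72 with array weights, 74 with no filter, 6 without normoxia 2, 9 without normoxia 3 and 63 without hypoxia 3. Of 135 recomputed changes of single probes, 20 turned sign, all of changes that did not pass in either fit, and the cause was not tested. The value of dme-miR-10-3p was -0.048 with 75th percentile scaling, -0.10 with no scaling and -0.0074 with array weights. Array weights also gave -0.18 for tur-miR-10-5p, -0.021 for der-miR-10_L+1 and 0.11 for dan-miR-10. With single arrays left out the changes ranged from -0.28 to 0.31 for tur-miR-10-5p, -0.16 to 0.31 for der-miR-10_L+1, -0.65 to 0.17 for dan-miR-10, -0.20 to 0.039 for dme-miR-10-5p, -0.20 to 0.026 for aae-miR-10_L+5R-1, -0.14 to 0.21 for aga-miR-10_L+1_1ss2AC, -0.21 to 0.035 for tur-miR-10-3p, -0.18 to 0.23 for dme-miR-10-3p and -0.089 to 0.76 for bmo-miR-10-3p_L-1.

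Same-numbered samples did not deviate together (correlations of -0.251, -0.273 and -0.0583). With so few arrays these values cannot exclude a pairing, and the main fit used none. The replicate block left 0 probes past the threshold, 11 at an unadjusted p under 0.05, and a median change of 0.0027 for the miR-10 probes.

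Members found at 1 oxygen level only numbered 2 in hypoxia with a robust standard deviation, beside 14 of all 2546 probes. That limit was higher on normoxia 2 than on any other array. In normoxia they numbered 1 with at least 2 of 3 arrays required, and 1 without normoxia 3, within a range of 0 to 1 when arrays were left out singly. Counts over all probes were not made for these normoxia settings, so 1 of 39 cannot be set against the whole array. With no filter, 2 of 39 members, tur-miR-993a-3p and bmo-miR-993a-3p_1ss12CT, had an unadjusted p under 0.05, beside 2.91% of all 2546 probes. None passed (limma, smallest adjusted p = 0.768). Their changes were opposite, -0.65 and 0.29 in the same order. Signals near the background limit what can be said of these.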
